A study of Mus musculus with 4 samples.

Results

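The genes described here build the mitochondrial respiratory chain and ATP synthase of the mouse ovary. Members were taken by symbol from the 32285 genes of the count matrices: nuclear genes starting with Nduf, Uqcr, Cox4i, Cox5, Cox6, Cox7, Cox8 or Atp5, and the genes of the mitochondrial genome, which start with mt-. Names with the -ps suffix of pseudogenes were left out, which removed 1 gene, Ndufb1-ps. This gave 102 members, 89 nuclear and 13 mitochondrial, and the 2 sets are reported apart throughout. By role, the nuclear members were 29 accessory subunits, 7 core subunits and 8 assembly factors of complex I, 8 subunits of complex III, 12 of complex IV and 17 of ATP synthase, plus 8 paralogs known from restricted tissues (Cox4i2, Cox6a2, Cox6b2, Cox7a1, Cox7b2, Cox8b, Cox8c and Ndufa4l2). The 13 mitochondrial genes code for 7 subunits of complex I (mt-Nd1 to mt-Nd6 and mt-Nd4l), 1 of complex III (mt-Cytb), 3 of complex IV (mt-Co1 to mt-Co3) and 2 of ATP synthase (mt-Atp6 and mt-Atp8).

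The series held 4 single-cell libraries, 1 per group: control (PBS and saline), doxorubicin (3 mg/kg), doxorubicin with AMH (3 mg/kg and 0.75 mg/kg) and AMH (0.75 mg/kg). Dosing began at postnatal day 25, doxorubicin was given in 2 weekly doses, and ovaries were collected 4 hours after the last dose. Each library pooled 1 ovary from each of 5 animals, so no spread between animals was measured. All differences below therefore compare libraries, have no replicate check and carry no test. Intervals are 95%, exact, and cover counting error only. Where 4 values follow each other, the first is the control library, the second doxorubicin, the third doxorubicin+AMH and the last AMH.

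The respiratory chain passes electrons from NADH and succinate to oxygen through complexes I to IV and pumps protons across the inner mitochondrial membrane. ATP synthase uses the return of those protons to make ATP. Most subunits are encoded in the nucleus and imported, while a small set is made inside the mitochondrion from its own genome, so each complex other than complex II draws on both genomes. In the ovary, theca and other steroid-producing cells start steroid synthesis inside mitochondria, where cholesterol is cleaved. Doxorubicin is an anthracycline that damages DNA and is known for mitochondrial toxicity in the heart. AMH (anti-Müllerian hormone) is made by granulosa cells of growing follicles and restrains the recruitment of further follicles. The series title asks whether AMH protects the ovary during doxorubicin treatment.

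The libraries held 7141 to 9478 barcodes and 138647495 to 178279122 UMIs (molecular tags that count each captured transcript once), with a median depth of 9834.5 to 13575 UMIs per barcode. Pairs of libraries shared 11 to 24 barcodes. After filters on depth, mitochondrial share and doublets, 6040 to 7956 cells per library were left and fell into 33 clusters, formed without any member gene. Clusters were named "-like" from marker genes, which gave 12 classes, and 7 of them had at least 50 cells in each library: stroma, granulosa, theca, mural smooth muscle, macrophage, blood endothelial and pericyte. For these classes each listed marker was higher in every library than in the remaining cells of any library, except in granulosa, where 7 of 8 markers were. A separate gate on each cell, by its UMIs of the same marker lists, named 13754 cells and left 13654 unnamed, apart from 1032 cells under 2000 UMIs that were not scored, with 1208 cells just inside and 1194 just outside its limit. Of gated cells in a named cluster, 96.2% fell in the class of their cluster. Over the mitochondrial limit were 2.47%, 3.61%, 6.08% and 5.30% of barcodes, more in both libraries with AMH than in both without, and values at other limits are given where they moved a result.

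Levels are given as CPM: for nuclear members UMIs per 1000000 nuclear-genome UMIs of the class, and for mitochondrial members UMIs per 1000000 of all its UMIs, or a percent of them. Libraries of 3′ ends do not measure levels between genes on a common scale, so levels are compared between libraries and classes and not between genes, and a gene's share of a paralog set is read the same way. Ratios are log2 with 5 CPM added to both sides, for genes whose mean level across the 4 libraries was 20 CPM or more. Of the 89 nuclear members, 82 passed that filter in at least 1 of the 7 classes and 75 in all of them. The 7 that passed in none were Ndufaf1, Ndufaf5 and Ndufaf6, which are complex I assembly factors, and Cox6a2, Cox7b2, Cox8b and Cox8c. In theca-like cells the last 4 lay between 0 and 0.48 CPM in every library. Of the 89 nuclear members, 29 overlapped a gene on the other strand, 1 (Ndufa13) overlapped a gene on its own strand, and 11 had a near-identical 3′ end elsewhere in the genome. Of the 13 mitochondrial members these numbers were 2, 5 and 7, so a part of their counts may belong to another gene.

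Theca-like and granulosa-like cells had the highest shares of transcripts from the mitochondrial genome among the 7 classes. The 13 mitochondrial genes made up 8.33%, 8.21%, 5.81% and 6.16% of all UMIs in theca-like cells. In granulosa-like cells, the somatic cells that surround the oocyte, the share was 6.55%, 6.85%, 6.44% and 6.70%. Theca-like cells were thus above granulosa-like cells in both libraries without AMH and below them in both libraries with AMH. In stroma-like cells the share was 3.92%, 4.03%, 3.85% and 3.73%, and these values did not overlap those of granulosa-like or theca-like cells. Mural smooth muscle-like cells (4.66% to 5.20%), pericyte-like cells (4.46% to 4.88%), macrophage-like cells (4.06% to 4.66%) and blood endothelial-like cells (3.39% to 3.85%) lay between or beside these. Mural smooth muscle-like cells overlapped pericyte-like cells and these overlapped macrophage-like cells, while blood endothelial-like cells lay below macrophage-like cells and overlapped stroma-like cells. Among the small classes, oviduct epithelial-like cells reached 5.83% to 6.93% in 3 libraries, and erythroid-like cells, whose lineage sheds its mitochondria, had 0.96% to 1.26%.

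The nuclear members followed another order. In theca-like cells they made up 3.02%, 3.24%, 2.49% and 2.39% of nuclear UMIs, again higher in both libraries without AMH. In pericyte-like cells, whose mitochondrial share was below that of theca-like and granulosa-like cells, the nuclear share was 2.38%, 2.70%, 2.50% and 2.40%. Granulosa-like cells had 2.21%, 2.38%, 2.62% and 2.39%, and the pericyte and granulosa ranges overlapped. Stroma-like cells had 1.81%, 1.91%, 2.04% and 1.95%, below granulosa-like cells in each library. Against all other cells of the same library, the 79 nuclear members had a median log2 ratio of -0.33 in stroma-like cells, beside -0.14 over all 7735 genes. The 13 mitochondrial members had a median of -0.71, beside -0.10 over all 7516 genes tested on their scale. In theca-like cells the corresponding nuclear median was 0.44 and 0.46 in the control and doxorubicin libraries, and -0.02 and 0.01 in the doxorubicin+AMH and AMH libraries. These ratios describe the classes and are no test, since the cells were clustered on the same transcriptomes, although without the members.

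**Figure D1:**
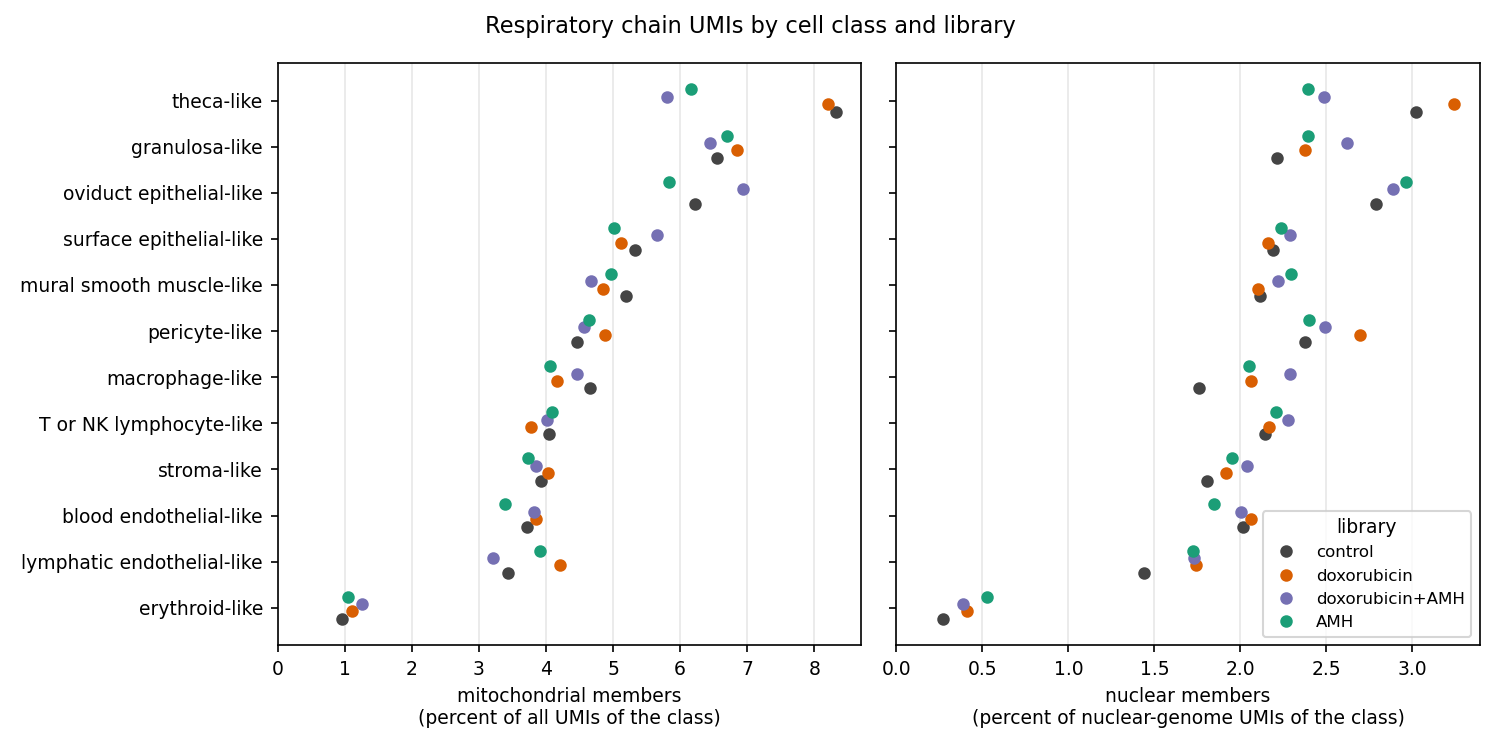
Share of UMIs from respiratory chain genes (percent, x axes starting at 0) in 12 classes (y axis), with 1 point per library. The left panel shows the mitochondrial members as a percent of all UMIs and the right panel the nuclear members as a percent of nuclear-genome UMIs. Theca-like cells of the libraries without AMH have mitochondrial shares of 8.33% and 8.21%, above those of the libraries with AMH at 5.81% and 6.16%.

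Most nuclear members differed little between classes. Folds between the class with the highest and the class with the lowest mean level were taken with 5 CPM added to both. Over the 82 that passed the filter, the median fold was 1.67, and 58 members had a fold under 2. The highest class was theca-like for 35 members, pericyte-like for 19, granulosa-like for 17 and macrophage-like for 7. The lowest class was blood endothelial-like for 29, stroma-like for 25 and macrophage-like for 20. Only 4 members had a fold of at least 5: Ndufa4l2 (112), Cox4i2 (64.7), Cox7a1 (13.2) and Cox6b2 (6.41). The added 5 CPM makes folds smaller than the plain ratio of levels, most where the lowest class was itself below 5 CPM. The largest folds are therefore lower bounds. All 4 are alternative forms of a broadly used subunit. Next came Atp5g3 (3.03), a gene for subunit c of the ATP synthase ring, which was highest in theca-like cells, and Ndufs4 (3.01), an accessory subunit of complex I, which averaged 352 CPM in granulosa-like and 114 in macrophage-like cells. Cox5a of complex IV had a fold of 2.86 and was highest in macrophage-like cells, at 482 CPM.

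The largest folds belonged to pericyte-like cells. Ndufa4l2 (ENSMUSG00000040280, chromosome 10:127514967-127517154, plus strand, GENCODE vM21 on the mm10 build) is a relative of the complex IV subunit Ndufa4 and a known target of the hypoxia factor HIF-1. Its level in pericyte-like cells was 626, 702, 504 and 451 CPM, from 263 to 647 UMIs. Blood endothelial-like cells had 40.5, 51.4, 41.7 and 66.4 CPM, and theca-like cells at most 0.29. Of the UMIs of Ndufa4 and Ndufa4l2 together, Ndufa4l2 took 77.7%, 79.8%, 72.0% and 67.4% in pericyte-like cells and 6.55%, 7.75%, 6.84% and 12.9% in blood endothelial-like cells. The pericyte and endothelial ranges were far apart in every library. Ndufa4l2 lies antisense to Shmt2, so stray counts from that gene cannot be told apart without the strand setting of the counting.

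Cox4i2 (ENSMUSG00000009876, chromosome 2:152754173-152765037, plus strand), an alternative form of the complex IV subunit Cox4i1 known from lung and from cells that sense oxygen, showed the same 2 classes. Its level in pericyte-like cells was 480, 560, 466 and 255 CPM. Cox4i1 itself was 911, 1044, 962 and 929 CPM in the same cells. The Cox4i2 share of the pair was 34.5%, 34.9%, 32.6% and 21.6%, and the interval of the AMH library (18.6% to 24.8%) lay below those of the other 3 libraries. In blood endothelial-like cells the Cox4i2 share was 4.46%, 5.10%, 5.26% and 7.39%, with the AMH library highest, and in the other 5 main classes it stayed under 1%. The 6 pericyte markers in blood endothelial-like cells summed to 586, 677, 785 and 864 CPM, also highest in the AMH library, and their part in the Cox4i2 and Ndufa4l2 values there was not tested. With each pericyte-like cell thinned to 2000 UMIs, which left out 0 or 1 cell per library, 45.4%, 44.7%, 50% and 36.1% of cells had a Cox4i2 UMI, and 63.9%, 60.5%, 40% and 41.7% an Ndufa4l2 UMI. Before thinning, at median depths of 6835 to 10527 UMIs, these shares were 78.0%, 81.6%, 75.4% and 58.9% for Cox4i2 and 84.4%, 84.2%, 80.3% and 65.8% for Ndufa4l2. Erythroid-like cells, used as a background for free RNA, had none of either after thinning (0 of 29 to 56 cells, which allows 5.36% to 10.3%), at median depths of 3905 to 6553 UMIs before it. Before thinning 1.72%, 1.69%, 0% and 0% of them had a Cox4i2 UMI and 1.72%, 0%, 0% and 0% an Ndufa4l2 UMI. Both genes were among the 10 leading genes of the cluster that the pericyte markers named, which is led by Rgs5, although neither was used to form it.

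**Figure D2:**
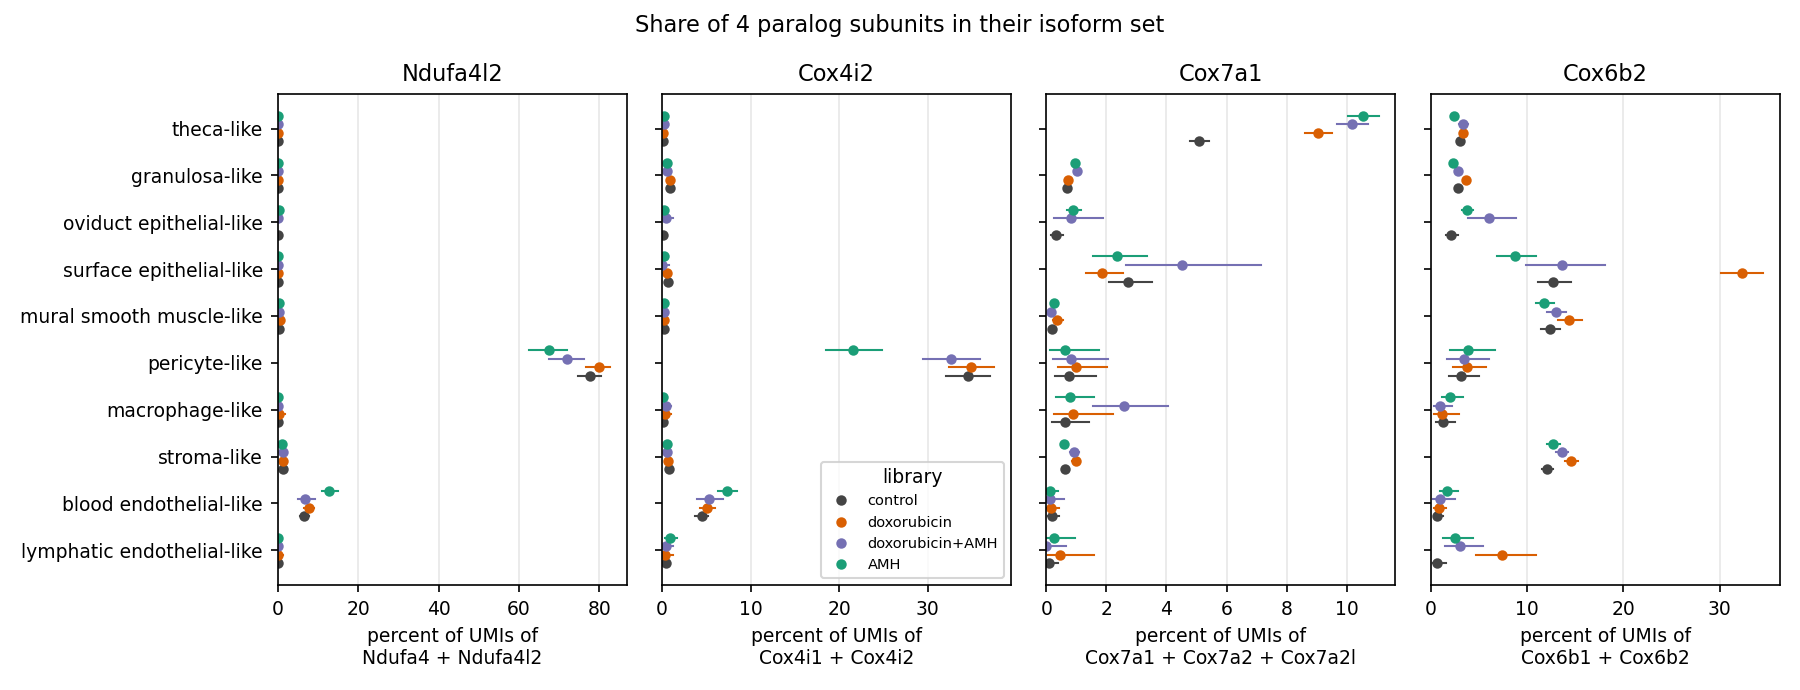
Share of a paralog set (percent of its UMIs, x axes starting at 0) taken by Ndufa4l2, Cox4i2, Cox7a1 and Cox6b2 in 10 classes (y axis), with 1 point per library and exact binomial intervals as lines, where the set has at least 100 UMIs. Ndufa4l2 and Cox4i2 stand apart in pericyte-like cells, at 67.4% to 79.8% and 21.6% to 34.9%.

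Cox7a1 (ENSMUSG00000074218, chromosome 7:30184144-30186078, plus strand), the form of subunit VIIa known from heart and skeletal muscle, was a theca gene here. Its level in theca-like cells was 43.0, 83.6, 88.6 and 89.9 CPM. The control library was the lowest, and the other 3 lay within 83.6 to 89.9. The log2 ratio of doxorubicin to control was 0.88 (0.78 to 0.99) and that of AMH to control 0.98 (0.88 to 1.09). In contrast, doxorubicin+AMH to AMH was -0.02 (-0.12 to 0.08), and doxorubicin+AMH to doxorubicin was 0.08 (-0.02 to 0.18). Its share of the set with Cox7a2 and Cox7a2l was 5.09%, 9.05%, 10.2% and 10.6%. Since the 3 treated libraries are set against the same control library, the 2 ratios near 1 are not separate evidence. In granulosa-like cells Cox7a1 was 5.25, 5.72, 9.42 and 7.93 CPM, below the filter.

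Cox6b2 (ENSMUSG00000051811, chromosome 7:4751792-4753094, minus strand), the form of subunit VIb known from testis, was read in stroma-like, mural smooth muscle-like and surface epithelial-like cells. In stroma-like cells it was 42.1, 57.1, 55.0 and 48.0 CPM, with log2 ratios of 0.40 (0.31 to 0.49) for doxorubicin to control and 0.18 (0.07 to 0.28) for doxorubicin+AMH to AMH. In surface epithelial-like cells it was 62.3, 199, 74.0 and 44.7 CPM, from 194, 578, 39 and 71 UMIs. Both cell types thus had the highest level in the doxorubicin library. By the Cox6b2 share of the pair with Cox6b1, it was also highest in mural smooth muscle-like (14.4%), granulosa-like (3.70%) and lymphatic endothelial-like cells (7.40%). By that share it was not the highest in theca-like, macrophage-like, blood endothelial-like and pericyte-like cells. Erythroid-like cells, used above as a background for free RNA, had 0, 2, 5 and 3 Cox6b2 UMIs of 11, 28, 21 and 12 in the pair. Within the stroma cluster led by Clec3b, Cox6b2 was 26.1, 112, 51.7 and 23.7 CPM, and its log2 ratios were 1.91 and 0.98. Within the stroma cluster led by Lrat it was 34.5, 33.2, 36.1 and 31.9, with log2 ratios of -0.05 and 0.15. Without the Clec3b cluster the class ratios were 0.19 and 0.09. The surface epithelial cluster led by Gng13 had 73.3, 241, 78.2 and 60.2 CPM from 65, 54, 34 and 30 cells. The Cox6b2 share of the pair with Cox6b1 was 32.3% in doxorubicin surface epithelial-like cells and 8.72% to 13.6% in the other libraries. Cox6b2 overlapped no annotated gene and had no near-identical 3′ end.

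Between libraries with and without doxorubicin, the nuclear members of granulosa-like cells were slightly higher with doxorubicin, in a narrow band. Members are called past the fold here when a ratio exceeds 5/4, which is 0.32 on the log2 scale. Of the 77 members tested, 74 had a log2 ratio above 0 for doxorubicin to control and 69 for doxorubicin+AMH to AMH, beside 43.9% and 50.3% of all 6823 genes. The medians were 0.10 (0.07 to 0.13) and 0.16 (0.12 to 0.19), beside -0.02 and 0.00 over all genes. Brackets after a median give the medians, over members, of the lower and of the upper counting bound of single members, and so are not an interval of the median itself. No member was higher past the fold for doxorubicin to control (background 0.762% of all genes), and 1, Ndufs8, was for doxorubicin+AMH to AMH (2.58%). No member was lower past the fold in either, where the background was 1.48% and 3.59%. These 2 comparisons share no library. Within granulosa clusters the median for doxorubicin to control ranged from 0.02 to 0.14. Low-level markers of several other types were lower in both libraries with doxorubicin. Among them the 8 oocyte markers summed to 12.5, 6.81, 5.29 and 12.7 CPM and the 6 oviduct epithelial markers to 19.7, 11.5, 10.2 and 21.9. Their part in the granulosa values was not tested.

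By role, the granulosa medians for doxorubicin to control and doxorubicin+AMH to AMH were 0.10 and 0.17 for ATP synthase, 0.09 and 0.17 for accessory and 0.07 and 0.23 for core subunits of complex I, 0.11 and 0.12 for complex III, and 0.12 and 0.14 for complex IV. All of these role medians were above 0 and below the fold. Uqcrq, a small subunit of complex III, was 340, 386, 494 and 429 CPM, lowest in control and highest with both agents. Cox5a was 231, 262, 254 and 220 CPM, and both libraries with doxorubicin lay above both without. Ndufa11, an accessory subunit of complex I, was 133, 153, 163 and 144 CPM. The mitochondrial members had no common direction: the log2 ratio of their sum was 0.06 for doxorubicin to control and -0.06 for doxorubicin+AMH to AMH. Over both comparisons mt-Nd3 had the widest ratio of the 13, at 1308, 1355, 1139 and 1489 CPM, which was lower with doxorubicin only in the pair with AMH (-0.39).

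In stroma-like and theca-like cells, too, most nuclear members were slightly above 0 with doxorubicin. In stroma-like cells the 78 members had medians of 0.08 in both doxorubicin ratios, beside -0.01 and 0.03 over all genes. Within stroma clusters the first median ranged from 0.0024 (Grin2b) to 0.12 (Clec3b) and the second from -0.038 (Clec3b) to 0.051 (Grin2b). In the Clec3b cluster 12 of 76 members were higher past the fold for doxorubicin to control (background 12.9%). Past the fold was 1 member higher for doxorubicin to control (Cox6b2, background 1.13%) and 0 for doxorubicin+AMH to AMH (1.2%, 85 of 6822 genes), and 0 were lower in either (1.2% and 1.7%). In theca-like cells 74 and 60 of 79 were above 0, with medians of 0.08 (0.04 to 0.15) and 0.04 (-0.01 to 0.11), beside -0.01 and 0.00 over all genes, of which 46.4% and 50.3% were above 0. Past the fold was 1 member higher for doxorubicin to control (Cox7a1, background 1.23%) and 0 for doxorubicin+AMH to AMH (2.28%), and 0 were lower (1.77% and 2.43%). Within the theca clusters led by Cyp17a1, Prss35 and Sct the doxorubicin to control medians were 0.081, 0.17 and 0.23, and those of doxorubicin+AMH to AMH 0.022, 0.026 and 0.075. Higher past the fold for doxorubicin to control were 14 of 80 members in the Sct cluster (background 8.9%) and, in the Prss35 cluster with 34 and 32 cells, 20 of 78 (29.7%), beside 8 lower (27.2%).

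By the ratio closer to 0 of the 2 doxorubicin ratios, Cox6b2, Cox5a and Atp5g3 were the highest members in stroma-like cells. Cox5a was 191, 212, 235 and 208 CPM there (0.15 and 0.17) and Atp5g3, a gene for subunit c of ATP synthase, was 214, 238, 245 and 215 CPM (0.14 and 0.19). Within the Clec3b cluster the doxorubicin+AMH to AMH ratios of Cox5a and Atp5g3 were -0.045 and -0.062. Among the lowest in stroma-like cells was Cox7a2l, at 312, 302, 319 and 322 CPM (-0.04 and -0.02). In theca-like cells Cox5b of complex IV was 429, 488, 387 and 350 CPM (0.18 and 0.14), Ndufa11 was 191, 219, 136 and 125 CPM (0.19 and 0.12), and Cox6a1 had 0.12 and 0.19. These 3 were the highest theca members, while among the lowest Ndufa9, an accessory subunit of complex I, was 59.9, 59.7, 46.5 and 47.5 CPM (-0.00 and -0.03). All of these ratios were below the fold, other than that of Cox6b2 for doxorubicin to control.

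The medians of mural smooth muscle-like cells were -0.02 and -0.01, with 35 and 36 of 79 members above 0 (44.3% and 45.6%, beside 48.9% and 52.1% of all genes), but within the mural cluster led by Acta2 they were 0.040 and 0.065. Of the 13 mitochondrial members, 12 and 11 were below 0 in mural smooth muscle-like cells, but the ratios of their sum were 0.031 and 0.016 within the Acta2 cluster. In theca-like cells 11 and 13 of the 13 were below 0 with doxorubicin (medians -0.045 and -0.085), and in stroma-like cells 10 and 10 were above 0 (0.033 and 0.049). The theca sums were 0.037 for doxorubicin to control in the Sct cluster, and the stroma sums were -0.16 for doxorubicin to control in the Clec3b cluster and -0.029 for doxorubicin+AMH to AMH in the Mxd3 cluster, so these directions did not hold in every cluster. In macrophage-like cells 13 of 13 were below 0 for doxorubicin to control (median -0.17) and 9 of 13 above 0 for doxorubicin+AMH to AMH (0.11).

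Macrophage-like cells had doxorubicin medians of 0.22 (-0.08 to 0.50) and 0.16, on 88 to 184 cells per library. Other markers differed between these libraries too: the 4 neutrophil markers summed to 207, 817, 568 and 376 CPM, the 7 T or NK lymphocyte markers to 39.4, 279, 112 and 291, the 8 stroma markers to 323, 119, 113 and 107 and the 7 theca markers to 413, 172, 325 and 70.1. Their part in the macrophage values was not tested. Of 76 members, 17 and 12 were higher past the fold (22.4% and 15.8%), near the background of 17.8% and 14.1%. For the 2 ratios of AMH, 18 and 13 were (23.7% and 17.1%), beside 12.6% and 17.3%. The 2 members past the fold in both doxorubicin ratios (2.63%, background 4.13%) were Ndufb5, at 162, 214, 240 and 183 CPM, and Atp5o, at 155, 205, 246 and 183 CPM. In blood endothelial-like cells 16 of 79 members were higher for doxorubicin+AMH to AMH (20.3%, background 16.3%), 24 were lower for AMH to control (30.4%, background 19.3%) and 2 were lower for doxorubicin+AMH to doxorubicin (2.53%, background 14.2%). The nuclear medians of the 2 ratios of AMH were -0.23 and -0.04. These counts rest on 60 to 168 cells per library and differed between the 2 ratios of AMH. In the AMH library alone, blood endothelial-like cells also had more of other markers: the 8 stroma markers summed to 235, 215, 212 and 905 CPM, the 8 macrophage markers to 38.7, 31.7, 33.6 and 169, and the 6 erythroid markers to 17.0, 16.5, 19.3 and 393. Their part in these counts was not tested.

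**Figure D3:**
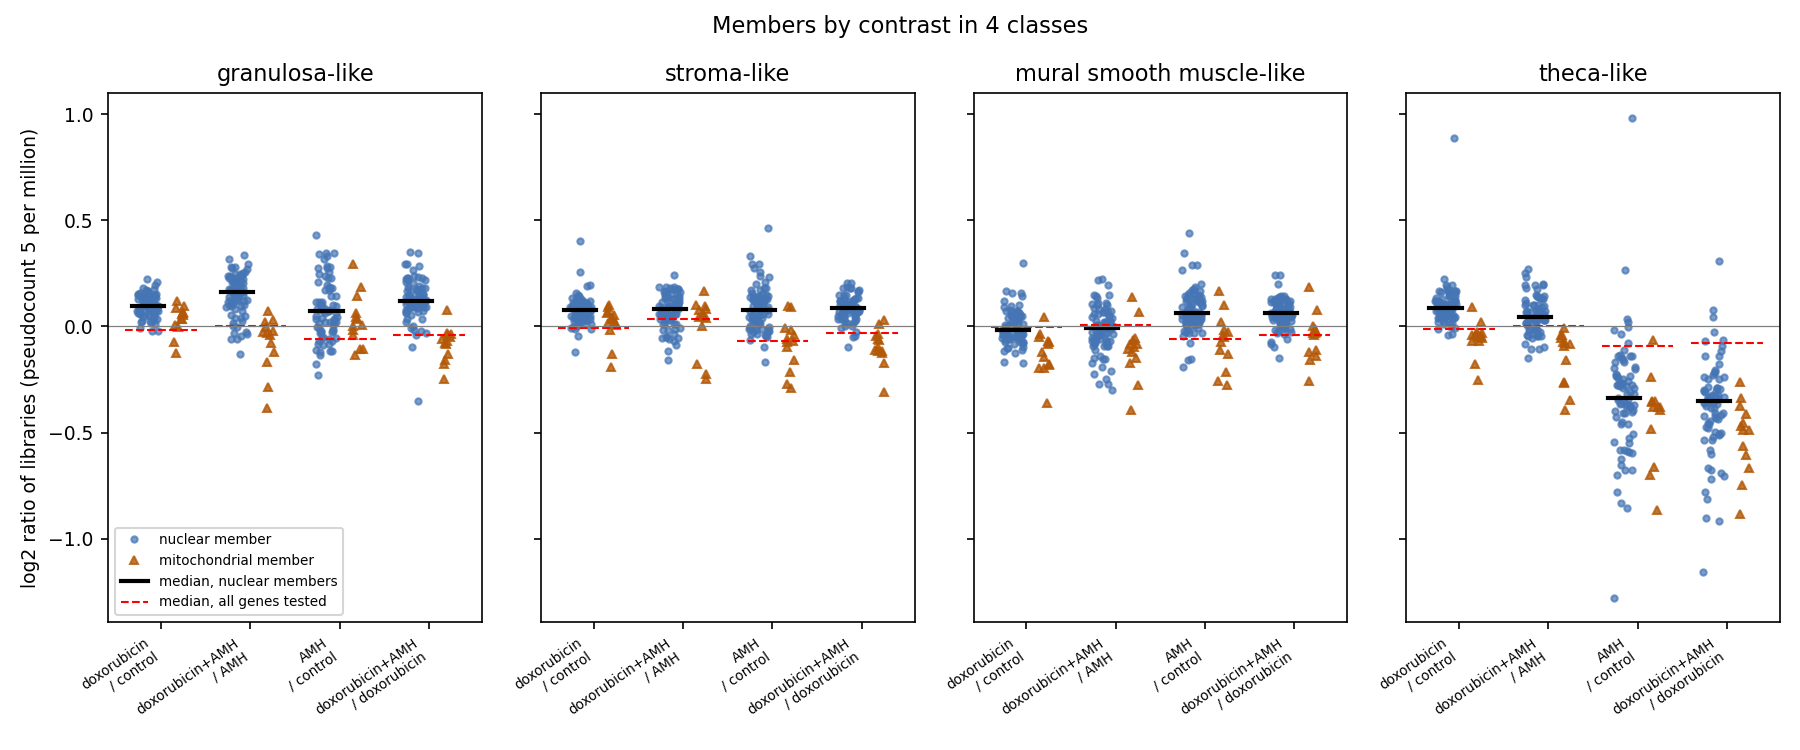
Log2 ratios of libraries (y axis, pseudocount 5 CPM) for the 4 comparisons (x axis) in granulosa-like, stroma-like, mural smooth muscle-like and theca-like cells. Circles are nuclear members, triangles mitochondrial members, black bars the median of the nuclear members and red dashed lines the median of all genes tested. The points of theca-like cells lie mostly below 0 in both comparisons of AMH, with nuclear medians of -0.34 and -0.35, while the other nuclear medians lie between -0.02 and 0.16.

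Between libraries with and without AMH, granulosa-like and stroma-like cells had small positive class medians. Over the 77 members tested in granulosa-like cells these were 0.07 (0.03 to 0.10) for AMH to control and 0.12 (0.09 to 0.16) for doxorubicin+AMH to doxorubicin, beside -0.06 and -0.04 over all genes. Within the granulosa cluster led by Slc38a5 they were -0.025 and -0.021, and with classes set by the gate the first was 0.027. Within the clusters led by Fgd5 and Cdh12, 12 of 76 and 18 of 77 members were higher past the fold for AMH to control (background 2.28% and 11.4%). For doxorubicin+AMH to doxorubicin 6 of 77 were in the Cdh12 cluster (background 10.3%). Over the class, past the fold were 5 higher for AMH to control (Cox8a, Atp5k, Atp5mpl, Ndufa3 and Uqcrq, background 2.68%) and 2 for doxorubicin+AMH to doxorubicin (Uqcrq and Uqcr10, 3.58%). The lower counts were 0 (background 7.09%) and 1 (Ndufaf4, a complex I assembly factor, 7.36%). Uqcrq alone of the 77 passed in both (1.3%, background 1.13%), with log2 ratios of 0.33 and 0.35. At least 1 of these missed the fold with doublets kept, with each cell weighted equally, with the gate and within the Fgd5, Ube2c and Slc38a5 clusters, and in the last they were 0.11 and 0.032. Ndufa3 was 145, 156, 191 and 186 CPM and Uqcr10, a small complex III subunit, was 278, 283, 361 and 330. Both genes had both libraries with AMH above both without. By the ratio closer to 0, the lowest members were Ndufaf4, at 27.5, 30.0, 22.4 and 24.9 CPM (-0.12 and -0.35), Ndufs1, a core subunit of complex I, at 44.4, 46.5, 43.2 and 40.5 CPM (-0.12 and -0.10), and Cox5a (-0.07 and -0.04). In granulosa-like cells the 8 granulosa markers summed to 4925, 4756, 6473 and 5374 CPM, higher in both libraries with AMH. In stroma-like cells the medians were 0.08 and 0.08. Of 78 members, 2 and 0 were higher past the fold (background 1.55% and 1.17%) and 0 and 0 lower (5.32% and 4.27%). Within stroma clusters the first median ranged from 0.086 (Grin2b) to 0.19 (Clec3b, with 13 of 76 members higher past the fold, background 5.41%) and the second from 0.022 (Mxd3) to 0.11 (Lamc3), with 9 of 76 higher past the fold in the Clec3b cluster (background 22%). Cox7c of complex IV was 746, 796, 905 and 915 CPM there, and both libraries with AMH lay above both without. So they did for Ndufa5, an accessory subunit of complex I, at 166, 170.2, 197 and 189 CPM (0.18 and 0.20), and Uqcrq, at 191, 213, 242 and 225 CPM (0.23 and 0.18, but -0.14 for doxorubicin+AMH to doxorubicin within the Clec3b cluster). Among the lowest stroma members were Ndufs1, at 36.9, 37.6, 36.3 and 34.2 CPM (-0.10 and -0.04), and Ndufa13, at 279, 292, 291 and 272 CPM (-0.04 and -0.01). Of the 13 mitochondrial members, 11 and 11 were below 0 in stroma-like cells, with medians of -0.067 and -0.098, but within the Clec3b cluster the second ratio of their sum was 0.17. The 7 mural smooth muscle markers in stroma-like cells summed to 997, 894, 1470 and 1305 CPM and the 8 granulosa markers to 345, 367, 479 and 506, also higher in both libraries with AMH. The part of these markers in the granulosa and stroma values was not tested.

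Theca-like cells differed in the other direction. With AMH, most nuclear members and nearly all mitochondrial members of the theca class were lower, both without and with doxorubicin. Median log2 ratios of the 79 nuclear members were -0.34 (-0.41 to -0.25) for AMH to control and -0.35 (-0.43 to -0.29) for doxorubicin+AMH to doxorubicin, beside -0.09 and -0.08 over all 6504 genes. Lower past the fold were 40 members (50.6%, background 22.4%) and 51 members (64.6%, background 21.4%), and 37 were lower in both comparisons (46.8%, background 16.3%), which share no library. Higher past the fold were 1 (Cox7a1, background 11.8%) and 0 (11.5%). The log2 ratio of the summed mitochondrial members was -0.43 and -0.50. On the scale of all UMIs, 11 and 12 of the 13 were past the fold, beside 20.4% and 18.8% of all genes. With a mitochondrial limit of 10% in place of 20% these sums were -0.26 and -0.33, and with median-of-ratios scaling the nuclear counts were 21 and 30 of 79 (26.6% and 38%, background 15.7% and 15.8%).

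The roles had like medians. For AMH to control and doxorubicin+AMH to doxorubicin they were -0.35 and -0.36 for ATP synthase, -0.35 and -0.36 for accessory and -0.36 and -0.38 for core subunits of complex I, -0.43 and -0.48 for complex III, and -0.28 and -0.34 for complex IV. Of the 8 complex III members 5 and 7 were lower past the fold, of the 12 of complex IV 4 and 8, of the 17 of ATP synthase 9 and 10, and of the 29 accessory subunits of complex I 17 and 19. The background of these counts is the share of all genes lower past the fold in theca-like cells, given above for each comparison. Each role has few members, so its counts are not read as a result about the role. Complex II, which passes electrons from succinate and has no mitochondrially encoded subunit, is not among the members. Its 4 genes all passed the filter, with medians of -0.39 and -0.46. Cytochrome c and c1, the genes Cycs and Cyc1, had -0.82 and -0.73. Of 26 assembly factors 16 passed the filter, with medians of -0.32 and -0.33. Of these 16, 8 and 10 were lower past the fold, against the same background. Of 13 genes that keep or express mitochondrial DNA 6 passed, with medians of -0.22 and -0.19. Of 6 regulators of mitochondrial biogenesis 3 passed, with medians of -0.06 and 0.14. The 37 members lower in both comparisons were of complexes I, III and IV and ATP synthase, and the regulators did not show a common direction.

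By the ratio closer to 0 of the 2 comparisons, Atp5g3, Uqcrq and Cox6a1 were the lowest members. Atp5g3 (ENSMUSG00000018770, chromosome 2:73908447-73911326, minus strand) was 975, 986, 439 and 399 CPM, and its log2 ratios were -1.28 (-1.32 to -1.24) and -1.16 (-1.20 to -1.12). Its paralog Atp5g2, which codes for the same mature subunit c, was 493, 533, 550 and 500 CPM, with log2 ratios of 0.02 and 0.05. The share of Atp5g3 among the 3 subunit c genes was 53.1%, 52.0%, 34.6% and 34.9%, higher in both libraries without AMH than in both with it. Uqcrq was 543, 609, 324 and 303 CPM (-0.83 and -0.90), over the class the opposite direction from granulosa-like cells. This did not hold in every theca cluster: the Uqcrq ratios were 0.011 and 0.20 within the Prss35 cluster, and the first was 0.12 within the Sct cluster. Cox6a1, of complex IV, was 545, 592, 343 and 299 CPM (-0.86 and -0.78). In Atp5g3, Uqcrq and Cox6a1 the 2 libraries without AMH lay far above the 2 with it.

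In complex I, Ndufa1, an accessory subunit encoded on the X chromosome, was 341, 381, 199 and 197 CPM (-0.78 and -0.92). Ndufs3, a core subunit, was 188, 209, 117 and 114 CPM (-0.70 and -0.81), with the limit that it has a near-identical copy, Gm12251, and the antisense neighbour Kbtbd4. Ndufa12 was 287, 303, 182 and 178 CPM (-0.68 and -0.72). The other complex I members past the fold in both were the accessory subunits Ndufa11, Ndufab1, Ndufb2, Ndufb4 to Ndufb9, Ndufb11, Ndufc1, Ndufs4, Ndufs5 and Ndufs6, the core subunits Ndufs1 and Ndufs8, and the assembly factor Ndufaf4. The ratio closer to 0 of these ranged from -0.63 (Ndufc1) to -0.33 (Ndufb6). In complex III and ATP synthase, Uqcr10 was 520, 549, 335 and 323 CPM (-0.68 and -0.70), and Atp5b, the catalytic beta subunit, was 626, 610, 423 and 415 (-0.59 and -0.52). Past the fold in both were also Uqcr11, Uqcrc1 and Uqcrfs1 of complex III, Cox5a, Cox6b1 and Cox7b of complex IV, and Atp5a1, Atp5g1, Atp5h, Atp5j, Atp5j2 and Atp5o of ATP synthase. Not all members were lower: Cox7a2l, which helps join complexes III and IV into supercomplexes, was 267, 259, 323 and 322 CPM (0.27 and 0.31). Uqcrh, the hinge subunit of complex III, was 806, 860, 845 and 804 CPM (0.00 and -0.02), and Cox4i1 was 1372, 1413, 1204 and 1167. Above 0 were 4 of 79 members for AMH to control and 3 of 79 for doxorubicin+AMH to doxorubicin. The share of all genes above 0 is not set beside these counts.

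**Figure D4:**
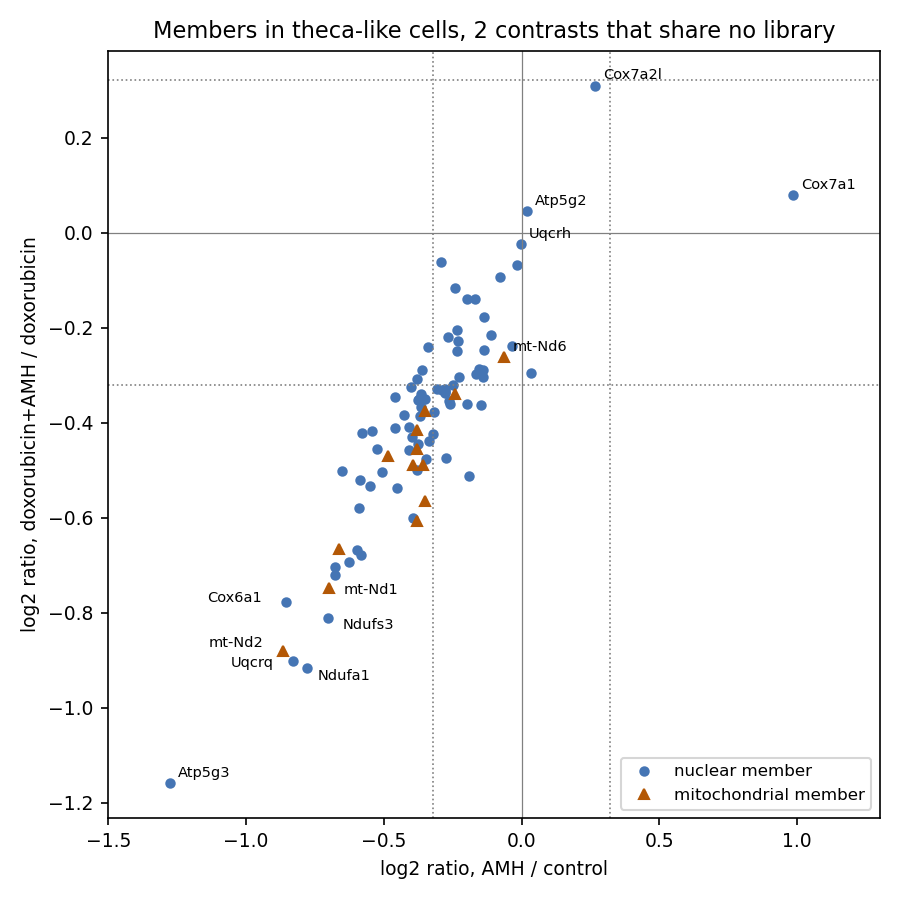
Log2 ratio of AMH to control (x axis) against doxorubicin+AMH to doxorubicin (y axis) in theca-like cells, 1 point per member, with circles for nuclear and triangles for mitochondrial members and dotted lines at the fold of 5/4. Atp5g3 lies at the lower left (-1.28 and -1.16), and Cox7a2l lies above 0 on both axes (0.27 and 0.31).

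The mitochondrial members were not lowered evenly in theca-like cells. On the scale of all UMIs, mt-Nd2 was 6913, 6594, 3576 and 3794 CPM (log2 -0.86 and -0.88), mt-Nd1 was 5564, 5405, 3216 and 3427 (-0.70 and -0.75), and mt-Nd4 was 6211, 6066, 3818 and 3922 (-0.66 and -0.67). These 3 complex I genes had the widest ratios of the 13 in AMH to control. The complex IV genes mt-Co1, mt-Co2 and mt-Co3 had log2 ratios of -0.36, -0.35 and -0.38 in AMH to control and -0.49, -0.38 and -0.46 in doxorubicin+AMH to doxorubicin. For mt-Atp6 they were -0.38 and -0.41, and for mt-Atp8 -0.39 and -0.49. The complex I genes mt-Nd3, mt-Nd4l and mt-Nd5 had -0.38, -0.35 and -0.48, then -0.61, -0.56 and -0.47. For mt-Cytb the level was 7158, 7625, 6027 and 6057 (-0.24 and -0.34). The make-up of the mitochondrial UMIs moved accordingly: mt-Nd2 took 8.30%, 8.03%, 6.16% and 6.16% of them, and mt-Cytb took 8.59%, 9.29%, 10.4% and 9.83%. The last member, mt-Nd6, the sole protein gene on the other strand and antisense to mt-Nd5, was 164, 156, 129 and 157 CPM and passed the fold in neither comparison.

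The theca class held 3 clusters whose numbers differed between libraries with and without AMH. The cluster led by Cyp17a1, the enzyme that makes androgens, held 677, 430, 52 and 42 cells. The cluster led by Prss35, a secreted protease-like protein known from the ovary, held 34, 32, 583 and 752 cells, and the cluster led by Sct (secretin) held 145, 136, 116 and 111. Cells of the libraries without AMH were thus mostly in the Cyp17a1 cluster and cells of the libraries with AMH mostly in the Prss35 cluster. These numbers show which cells each class value rests on and are no result about cell numbers, since genes that set the clusters apart also differed between the libraries. The median depth of theca-like cells moved with this, at 20442.5, 24350, 13957 and 12613 UMIs. All 7 theca markers were higher than in the remaining cells of each library, but their summed level was 14728, 14349, 5091 and 4898 CPM, and so was lower with AMH. Markers of some other types differed with AMH as well: the 8 stroma markers summed to 873, 941, 1620 and 1447 CPM and the 8 granulosa markers to 619, 605, 378 and 433. The 4 Schwann or glial markers summed to 9.95, 9.83, 75.6 and 92.4 CPM and the 7 mural smooth muscle markers to 78.5, 58.4, 150 and 139. The 6 erythroid markers, which did not follow AMH, summed to 294, 31.9, 798 and 9.80. Their part in the respiratory chain values was not tested.

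Respiratory chain levels followed the clusters. In the Cyp17a1 cluster nuclear members made up 3.10%, 3.31%, 3.04% and 2.96% of nuclear UMIs and mitochondrial members 8.82%, 8.78%, 7.01% and 7.99% of all UMIs. In the Prss35 cluster the nuclear shares were 1.82%, 2.07%, 2.30% and 2.25%, and the mitochondrial shares 5.80%, 4.99%, 5.68% and 6.02%. In the Sct cluster they were 2.61%, 3.02%, 2.87% and 2.74%, and 5.46%, 5.60%, 5.72% and 5.97%. The nuclear shares of the Cyp17a1 and Prss35 clusters did not overlap, whatever the treatment.

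Within clusters the AMH ratios were smaller or of the other sign. In the Cyp17a1 cluster the nuclear medians were -0.11 and -0.15, with 7 and 10 of 80 members lower past the fold (background 19.7% and 23.5%), and the mitochondrial sums -0.14 and -0.32. In the Sct cluster, which had over 100 cells in each library, the nuclear medians were 0.04 and -0.09, with 0 and 2 of 80 members lower past the fold (background 9.55% and 11.1%), and the mitochondrial sums 0.13 and 0.03. In the Prss35 cluster, with 34 and 32 cells in the libraries without AMH, the nuclear medians were 0.27 and 0.19 and the mitochondrial sums 0.05 and 0.19. Of its 78 members, 33 and 19 were higher past the fold (background 24.2% and 18.6%) and 2 and 1 lower (31.3% and 28.7%). Atp5g3 was 1065, 1085, 767 and 704 CPM in the Cyp17a1 cluster, 357, 334, 379 and 359 in the Prss35 cluster and 477, 567, 501 and 439 in the Sct cluster. Of the 3 clusters, the Cyp17a1 cluster alone had Atp5g3 lower in both libraries with AMH than in both without. Fewer cells of a type, a change of state and a change per cell cannot be told apart for the class as a whole.

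Cox7a1 behaved otherwise. It was lowest in control in each of the 3 theca clusters, at 42.8, 87.0, 113 and 146 CPM in the Cyp17a1 cluster, 65.4, 69.1, 92.1 and 87.7 in the Prss35 cluster and 42.6, 68.3, 68.1 and 76.2 in the Sct cluster. Its low level in the control library was thus seen within the clusters as well as over the class, although by little in the Prss35 cluster.

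**Figure D5:**
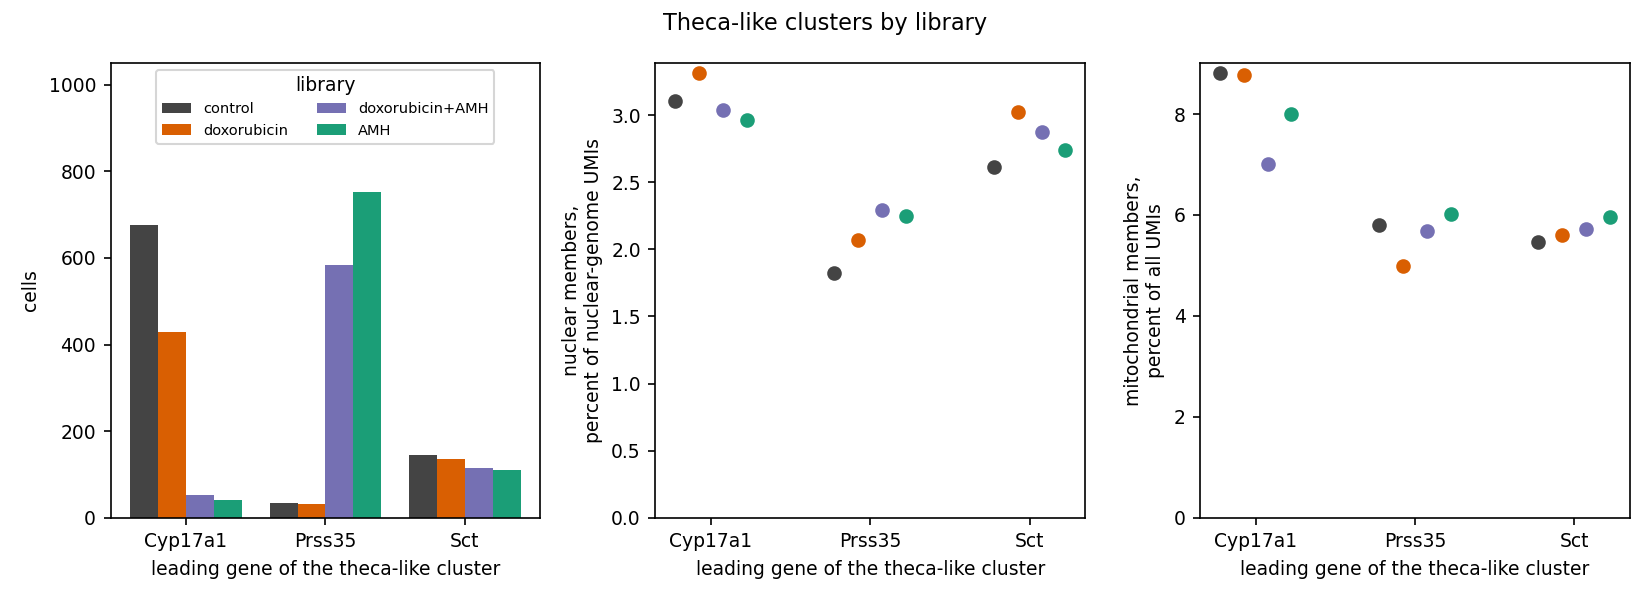
The 3 theca-like clusters (x axes, by leading gene) in each library (colours): bars give the number of cells, and points the nuclear members as a percent of nuclear-genome UMIs and the mitochondrial members as a percent of all UMIs. Cells of the libraries with AMH are mostly in the Prss35 cluster (583 and 752 cells), whose nuclear shares (1.82% to 2.30%) lie below those of the Cyp17a1 cluster (2.96% to 3.31%) in every library.

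The promoters of 3 members that were lower together in theca-like cells with AMH are shown beside that of Cox7a1, which was not lower. They are examples and not the 3 lowest members, since no window was available for Uqcrq. Each sequence is the RefSeq window of GRCm38.p6 from 250 bases before to 50 bases after the gene's start, 5′ to 3′ on the gene's strand. Capitals mark matches, on either strand, to the motifs searched: CCGGAAG (the core of ETS factors such as GABP), GCGCATGC (the core of NRF1, a regulator of respiratory genes), CAAGGTCA (a site of estrogen-related receptors and SF-1, read on the other strand as TGACCTTG). Matches to CCAAT and TATAAA were counted but are not marked. The windows are Atp5g3 at chr2:73911277-73911576 (minus strand), Cox6a1 at chr5:115348909-115349208 (minus), Ndufs3 at chr2:90904672-90904971 (minus) and Cox7a1 at chr7:30183921-30184220 (plus).
Atp5g3: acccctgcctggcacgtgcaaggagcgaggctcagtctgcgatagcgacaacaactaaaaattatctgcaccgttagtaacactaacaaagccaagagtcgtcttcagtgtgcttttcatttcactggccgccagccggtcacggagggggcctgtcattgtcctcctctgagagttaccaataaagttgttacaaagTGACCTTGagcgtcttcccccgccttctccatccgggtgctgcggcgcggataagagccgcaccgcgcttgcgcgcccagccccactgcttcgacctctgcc
Cox6a1: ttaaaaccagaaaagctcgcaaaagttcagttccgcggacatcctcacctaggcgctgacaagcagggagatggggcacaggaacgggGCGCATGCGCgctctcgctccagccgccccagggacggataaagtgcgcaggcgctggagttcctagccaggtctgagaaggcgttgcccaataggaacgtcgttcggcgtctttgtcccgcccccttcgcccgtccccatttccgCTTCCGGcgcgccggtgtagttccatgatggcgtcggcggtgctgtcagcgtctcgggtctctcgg
Ndufs3: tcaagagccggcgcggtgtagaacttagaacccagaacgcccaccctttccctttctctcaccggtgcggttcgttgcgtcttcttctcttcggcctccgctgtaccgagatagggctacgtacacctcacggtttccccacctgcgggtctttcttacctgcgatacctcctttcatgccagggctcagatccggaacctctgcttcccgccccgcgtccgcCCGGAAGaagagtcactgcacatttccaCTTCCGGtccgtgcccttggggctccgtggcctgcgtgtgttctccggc
Cox7a1: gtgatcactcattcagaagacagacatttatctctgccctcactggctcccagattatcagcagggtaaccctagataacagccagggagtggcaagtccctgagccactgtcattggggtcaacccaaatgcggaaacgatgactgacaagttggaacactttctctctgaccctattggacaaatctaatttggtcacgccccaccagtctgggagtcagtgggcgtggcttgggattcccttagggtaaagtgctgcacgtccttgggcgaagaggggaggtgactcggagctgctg

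A RefSeq window was found for 72 of the 89 nuclear members. CCGGAAG was in 16 of them (22.2%), beside 9.12% of all 27025 windows of the same length. GCGCATGC was in 11 (15.3%), beside 2.80%, and matches of it on both strands can overlap, as in Cox6a1. CAAGGTCA was in 3 (4.17%), beside 1.53%, CCAAT in 32 (44.4%), beside 37.9%, and TATAAA in 8 (11.1%), beside 14.2%. The median GC content was 57.3% in the member windows and 52.7% in all windows. Of the 3 marked motifs the Atp5g3 window held CAAGGTCA, Cox6a1 held CCGGAAG and GCGCATGC, and Ndufs3 held CCGGAAG at 2 places, while none of them was in the Cox7a1 window. Most member windows also held none of these 3 motifs, so the windows shown do not stand for the members. A match describes letters in the window and is not evidence that a factor binds there.

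Pericyte-like cells held further values that differed with AMH, on 61 to 109 cells per library. The class markers differed with AMH too: the 6 pericyte markers summed to 4673, 4603, 3298 and 3128 CPM and the 7 mural smooth muscle markers to 8392, 8529, 5614 and 5676, lower with AMH. The 8 granulosa markers summed to 310, 277, 827 and 656 CPM and the 8 stroma markers to 1988, 1549, 2750 and 2653, higher with AMH. The 6 erythroid markers summed to 33.9, 1338, 20.6 and 18.9 CPM, by far highest in the doxorubicin library. The part of all of these in the values below was not tested. Ndufa4l2 had log2 ratios of -0.47 (-0.68 to -0.26) for AMH to control and -0.47 (-0.68 to -0.27) for doxorubicin+AMH to doxorubicin, but the second was 0.02 with doublets kept and -0.24 with each cell weighted equally. Cox4i2 had -0.90 (-1.17 to -0.63) and -0.26 (-0.48 to -0.05). The AMH library was the lowest for both genes. Ndufa4, the broadly used relative, was 180, 177, 196 and 218 CPM, with intervals that span 0 in all 4 comparisons. Of 81 members tested in pericyte-like cells, 2 (Ndufa4l2 and Ndufa9) were lower past the fold in both AMH comparisons (2.47%, background 8.49%) and 1 (Uqcrc1) was higher in both (1.23%, background 4.69%). With each cell weighted equally Uqcrc1 was -0.023 for AMH to control. In macrophage-like cells 6 of 76 members were higher past the fold in both (7.89%, background 4.07%): Ndufaf3, Ndufa9, Ndufv1, Ndufv3, Ndufb2 and Cox7b. With each cell weighted equally Ndufv1 was -0.32 for doxorubicin+AMH to doxorubicin. Ndufaf3 was 19, 17.8, 27.9 and 30.2 CPM from 12 to 44 UMIs, with intervals that span 0 (-0.04 to 1.15 and -0.31 to 1.37). Of 79 members, 2 (Ndufaf2 and Ndufv1) were lower in both (2.53%, background 4.4%) in blood endothelial-like cells, with a ratio closer to 0 of -0.42 and -0.37.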

How the data were processed

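Single-cell RNA was measured in 4 pooled ovary libraries. Values in the deposited matrices are raw UMI counts, 1 row per gene, 1 column per barcode, and per the file headers Cell Ranger 7.0.0 wrote them. The submitters' processing notes name the mm10 build, R 4.2.0 and Seurat 4.1.0. The annotation, the strand setting and the treatment of intronic reads are not given in the sources used here. Positions come from GENCODE vM21, where all 102 member IDs were found, and promoter sequences from RefSeq (GRCm38.p6).

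Barcodes were kept from 1000 UMIs upward and up to a mitochondrial share of 20%. Scrublet (scanpy 1.11.5) scored doublets. Its automatic threshold marked 0 barcodes, so the highest scores were removed at 0.8% per 1000 barcodes (366 to 648 per library). Joint clustering used 2000 variable genes without the members, 30 principal components (scikit-learn 1.9.0), 20 neighbours and Leiden resolution 1.0 (leidenalg 0.10.2, igraph 0.11.9). A name required 3 or more markers, and 60% of the list, to exceed the median over clusters by 1 log2 unit and to be detected in 10% of the cluster's cells. These thresholds were set after values were seen. Of 33 clusters, 28 were named, and 292 to 596 cells per library stayed unnamed.

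UMIs were summed per class and library (Python 3.11.15, numpy 2.4.6, scipy 1.17.1). Ratio intervals are exact conditional binomial, with the pseudocount kept, and shares have Clopper-Pearson intervals. The code was tested on simulated data. With 1 library per group no test was made, and "past the fold" means a ratio over 5/4 (0.32 on the log2 scale). Each list is described by its counts and median beside all genes tested. Named were all mitochondrial members, the paralog sets, the 5 members with the largest fold between classes, in granulosa-like, stroma-like and theca-like cells the 3 highest and 3 lowest by the ratio closer to 0 of the 2 comparisons of a pair that share no library, and members past the fold in both. 1 member that this rule chose is not reported here. Others named were chosen after their values were seen. Members, lists and rules were chosen with earlier results of these data known.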

Additional observations from a re-analysis of the deposited data

Results flagged for a closer look

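Medians of the nuclear respiratory chain genes had opposite signs in theca-like cells and in 4 of the 6 other main classes when libraries with and without AMH were compared. The difference between classes was not tested, since each group has 1 library. For AMH to control, the median log2 ratio was -0.34 in theca-like cells, beside 0.071 in granulosa-like, 0.078 in stroma-like, 0.063 in mural smooth muscle-like and 0.23 in macrophage-like cells. For doxorubicin+AMH to doxorubicin it was -0.35 in theca-like cells, beside 0.12, 0.084, 0.062 and 0.17 in the same order. Blood endothelial-like cells (-0.23 and -0.044) were below 0 in both, and pericyte-like cells (0.019 and -0.097) only in the second. Within the mural cluster led by Acta2 the medians were 0.00043 and 0.040, and within the granulosa cluster led by Slc38a5 both were below 0. In mural smooth muscle-like cells the 8 granulosa markers summed to 344 CPM without either agent, 369 with doxorubicin, 501 with both and 520 with AMH, and the 7 theca markers to 144, 106, 64.8 and 90.4 CPM in the same order. Their part was not tested. The class value in theca-like cells rests mostly on the Cyp17a1 cluster without AMH and on the Prss35 cluster with AMH.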

How the results depend on the processing

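No paired analysis was possible because each group has 1 library, and for the same reason no library could be left out. In theca-like cells the nuclear medians for AMH to control and doxorubicin+AMH to doxorubicin were -0.34 and -0.35, with 40 and 51 members lower past the fold. With median-of-ratios scaling they were -0.23 and -0.27, with 21 and 30 members lower. Classes set by a marker gate on each cell gave -0.29 in the second. Within the Cyp17a1 cluster the medians were -0.11 and -0.15 (7 and 10 members lower), within the Prss35 cluster 0.27 and 0.19 (2 and 1 lower, 33 and 19 higher) and within the Sct cluster 0.042 and -0.092 (0 and 2 lower). The mitochondrial sums were -0.43 and -0.50. Over nuclear UMIs they were -0.47 and -0.54, with a mitochondrial limit of 10% -0.26 and -0.33, with no limit -0.44 and -0.51, with doublets kept -0.40 and -0.48, with each cell weighted equally -0.47 and -0.44 and with the gate -0.35 and -0.45. Within the Cyp17a1, Prss35 and Sct clusters they were -0.14 and -0.32, then 0.055 and 0.19, then 0.13 and 0.031. Apart from the Prss35 and Sct clusters, these theca medians and sums stayed negative in every alternative run.

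In granulosa-like cells the 4 nuclear medians were 0.097, 0.16, 0.071 and 0.12, for doxorubicin to control, doxorubicin+AMH to AMH, AMH to control and doxorubicin+AMH to doxorubicin. Within clusters the first was 0.021 (Slc38a5), 0.046 (Inhba) and 0.14 (Cdh12), and the second 0.096 (Fgd5), 0.024 (Slc38a5), 0.080 (Ube2c) and 0.099 (Cdh12). The third was -0.025 (Slc38a5), 0.023 (Inhba) and 0.14 (Cdh12), and the last 0.074 (Fgd5), -0.021 (Slc38a5) and 0.066 (Ube2c). With each cell weighted equally the second and the last were 0.10 and 0.076. With median-of-ratios scaling the last 2 were 0.14 and 0.17, and the gate gave 0.027 for AMH to control. The mitochondrial sums were 0.064, -0.058, 0.034 and -0.089. Over nuclear UMIs they were 0.069, -0.062, 0.036 and -0.095, with no mitochondrial limit 0.078, -0.055, 0.068 and -0.065, and with each cell weighted equally 0.038, -0.013, 0.031 and -0.020. Without the clusters led by Chchd10 and Amh they were 0.069, -0.072, 0.048 and -0.094. With a limit of 10% the first 3 were 0.054, -0.031 and -0.0050, and with doublets kept 0.068, -0.067 and 0.045. The gate gave 0.092, 0.050 and -0.099 in all but the second. Within the Fgd5 cluster they were 0.12, -0.0083, 0.15 and 0.019, within Slc38a5 0.086, -0.016, 0.052 and -0.050, within Inhba 0.047, -0.094, 0.11 and -0.029 and within Ube2c 0.058, -0.031, 0.018 and -0.071. Within Cdh12 the first 3 were 0.054, -0.14 and 0.11.

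Single genes past the fold that changed sign were, in theca-like cells, Atp5g3 (0.0047 and 0.18) and Uqcrq (0.011 and 0.20) within the Prss35 cluster, and Uqcrq (0.12) and Cox6a1 (0.015) for AMH to control within the Sct cluster. In stroma-like cells Cox6b2 was -0.046 for doxorubicin to control within the Lrat cluster. In mural smooth muscle-like cells the nuclear medians for doxorubicin were -0.018 and -0.0086, and within the Acta2 cluster 0.040 and 0.065. In pericyte-like cells Ndufa4l2 was 0.024 for doxorubicin+AMH to doxorubicin with doublets kept, and Uqcrc1 was -0.023 for AMH to control with each cell weighted equally. In macrophage-like cells Ndufv1 was -0.32 for doxorubicin+AMH to doxorubicin with each cell weighted equally. The cause was not tested. The values within the Prss35 and Cyp17a1 clusters and without the clusters led by Chchd10, Amh, Clec3b or Des were chosen after seeing the data. Depth limits the classes with under 200 cells per library, where counting intervals of single members often span 0.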
